A study of Homo sapiens with 11 samples.

Results

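Ubiquitin-conjugating E2 enzymes were examined as a gene family in PC-3, a human prostate cancer cell line, after transfection of small RNA duplexes. All non-control probes whose gene name is UBE2 followed by a letter and an optional number were taken, which gave 31 of the 30484 names in the gene name column of the array, and 56 probes of 41000. Of these, 54 probes of 30 genes were kept, which required a signal well above background on 6 or more of the arrays, and 52 were so on all 11. The remaining probes were one of UBE2R2, which was well above background on 0 arrays although the other UBE2R2 probe passed, and the single probe of UBE2U, which was well above background only on miR-372 sample 4. The choice of the probes used names alone and no measured value.

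Cells received dsEcad640, a duplex designed against the E-cadherin promoter, or a duplex of a miRNA, which was miR-372, miR-520c, miR-302a, miR-520f or miR-373, and mock cells received the transfection reagent alone. RNA was taken at 24 h, and each array holds 150 ng of RNA mixed from 4 transfections, so that the spread between single transfections cannot be seen. The p-values measure only the spread between arrays, which may be technical. Where different duplexes are pooled as 1 class, this spread also holds differences between the duplexes. The 11 arrays lie in 3 sets of 1 slide each and carry the sample numbers of their labels. In set 1, miR-372 (sample 4), miR-302a (sample 3) and dsEcad640 (sample 2) stand beside 1 mock array (sample 1), and in set 2, miR-373 (sample 7) and miR-520f (sample 6) stand beside mock sample 8. Set 3 has mock arrays 9 and 11, with miR-520c (sample 12) and a second miR-372 array (sample 10). One array is titled miR-530f but carries miR-520f in its other labels, and it was used as miR-520f. All duplexes of a set share the mock arrays of that set, and the groups share the cell line and the transfection reagent.

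An E2 enzyme takes activated ubiquitin, or a ubiquitin-like protein, from an E1 enzyme onto a cysteine in its core domain and passes it on with the help of an E3 ligase. The E2 often decides whether a substrate receives a single ubiquitin or a chain, and which lysine joins the chain. Most E2s serve ubiquitin and are present in all cells, while a few are dedicated to other modifiers such as NEDD8 or ISG15.

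A miRNA finds its targets mainly through the seed, bases 2 to 8 from the 5′ end, and the mature sequences are shown because they separate the duplexes into the groups compared here. They are from RefSeq (GRCh38.p14), with the seed in capitals.
hsa-miR-302a-3p: uAAGUGCUuccauguuuugguga
hsa-miR-372-3p: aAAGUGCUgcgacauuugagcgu
hsa-miR-373-3p: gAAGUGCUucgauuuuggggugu
hsa-miR-520c-3p: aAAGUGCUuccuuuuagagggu
hsa-miR-520f-3p: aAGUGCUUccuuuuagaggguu
The first 4 miRNAs share the seed AAGUGCU, which is also the seed given for dsEcad640 in the study, and the 6 arrays of these duplexes are called the common-seed arrays. In miR-520f the same 7 letters lie at bases 1 to 7, so that its seed, AGUGCUU, is shifted by 1 base. Sites for these seeds in E2 transcripts were not analysed here.

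Levels are log2 signals minus the 75th percentile of the array they come from, and the level of a probe is set only against the same probe on other arrays. Differences to mock come from limma with the set as a block, with Benjamini-Hochberg adjustment over all 27118 probes kept, and an adjusted p under 0.05 is a call. The share of all probes well above background was 54.4% to 72.9%, except on miR-372 sample 4, where it was 88.1%. The epithelial markers KRT8, KRT18 and EPCAM were well above background on all arrays in all of their 7 probes, as was 1 of the 3 probes of KLK3, a marker of prostate luminal cells. KRT8 and KRT18, keratins of simple epithelia, were called higher under the common-seed duplexes in 5 of the 7 epithelial probes, by 0.49 to 0.88. Over all probes 2.14% were called higher. Without the set block neither KRT8 probe passed (limma adjusted p = 0.158 and 0.235). The part of this rise in the E2 results was not tested.

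Across the family, 2 genes had probes that fell under the common-seed duplexes, UBE2B and UBE2W, and 3 had probes that rose, UBE2F, UBE2J2 and UBE2Q1. Of 54 E2 probes, 7 were called (13.0%), 3 lower and 4 higher, while over all probes tested 4.19% were called, 2.05% lower and 2.14% higher. At an unadjusted p under 0.05 in limma there were 18 of the 54 E2 probes (33.3%) and 5720 of all 27118 probes (21.1%). The median difference was 0.033 over the E2 probes and 0.030 over all probes, and 50 of the 54 differences were smaller than 0.5 in either direction. The differences ran from -1.39 for UBE2B to 0.43 for UBE2E3, and in RNA from whole cultures a lower signal cannot be told apart as fewer expressing cells or less RNA per cell. The number of E2 calls changed with single arrays left out and with the fit. Calls over all probes in these settings are not set beside it here. Without the set block 2 probes were called, both of UBE2B, and none without mock sample 1, where 13 E2 probes had an unadjusted p under 0.05 in limma. Leaving out mock sample 9 or miR-372 sample 10 left 1 call each, leaving out any one of dsEcad640 sample 2, miR-302a sample 3, miR-373 sample 7, mock sample 8, mock sample 11 or miR-520c sample 12 left 2 each, and leaving out miR-372 sample 4 gave 11.

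**Figure D1:**
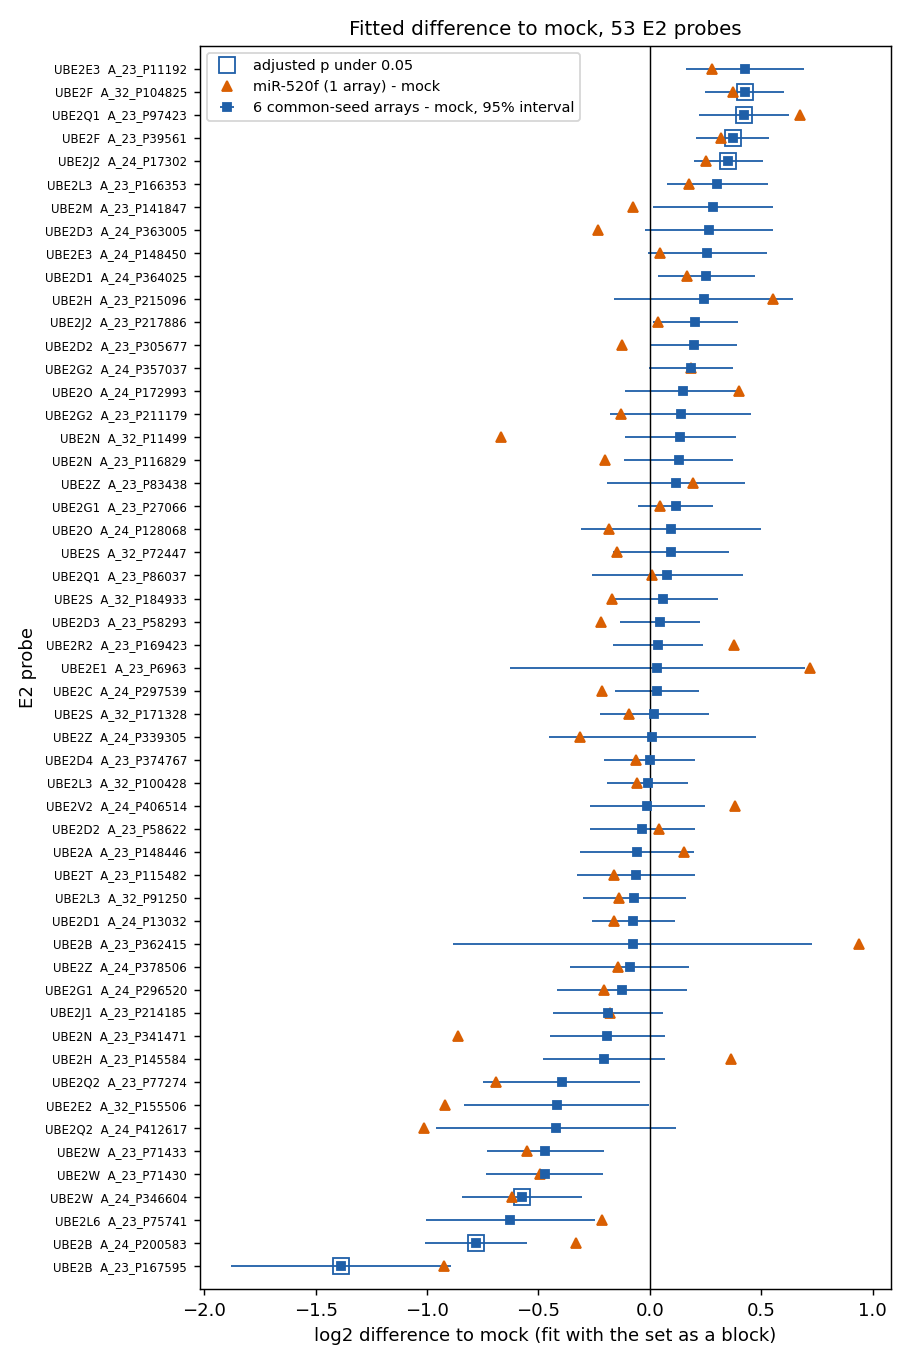
Fitted log2 difference to mock for 53 of the 54 E2 probes (rows), with squares and 95% intervals for the 6 common-seed arrays, open squares around the 7 probes with an adjusted p under 0.05, and triangles for the single miR-520f array. Most intervals include 0, and the UBE2B probes at the bottom lie farthest from it, at -1.39 and -0.78.

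UBE2B and UBE2A are the human counterparts of yeast RAD6, and they mark histone H2B with RNF20 and RNF40 and the clamp protein PCNA with RAD18. UBE2B fell under every common-seed duplex in 2 of the 3 probes that carry its name, whereas UBE2A differed little from mock. Probe A_23_P167595, at 133754537 to 133754596 on chromosome 5 (hg18), had levels of -1.85, -1.73, -1.46 and -0.97 on mock samples 1, 8, 9 and 11. It read -3.63 with dsEcad640, -3.12 with miR-302a, -3.22 and -2.89 with miR-372 samples 4 and 10, -2.28 with miR-373 and -3.01 with miR-520c. All 6 common-seed arrays lay below all 4 mock arrays, and miR-373 was the nearest to them. The share of all probes whose groups separate like this was not counted, here or for the genes below. In a looser pattern, all 6 common-seed arrays were on one side of the mock mean of their set. This held for 11.6% of all probes on the lower side and 16.5% on the higher side. In limma this probe fell by 1.39 (standard error 0.21, adjusted p = 0.0162), a 2.61-fold decrease. Within sets the mean difference was -1.48 in set 1, -0.55 in set 2, where miR-373 is the only common-seed array, and -1.74 in set 3.

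Probe A_24_P200583, which spans 6289 bases from 133738051 to 133744339 and therefore joins separate stretches of the genome, read 1.26, 1.32, 1.44 and 1.82 on mock samples 1, 8, 9 and 11. The common-seed levels were 0.44 with dsEcad640, 0.45 with miR-302a, 0.38 and 0.75 with miR-372 samples 4 and 10, 0.69 with miR-373 and 0.88 with miR-520c. These groups did not overlap either, and the spread among the duplex arrays was narrower than in the first probe. The fall was 0.78 on the log2 scale, with a difference of -0.78 (standard error 0.10, adjusted p = 0.00913), or 1.72-fold, and it was -0.84, -0.63 and -0.81 in sets 1, 2 and 3. Without mock sample 1 its adjusted p was 0.0946, and the first probe lost its call there too (adjusted p = 0.139). The study lists both probes among decreased genes with a seed site. That list was chosen on these arrays and is not independent evidence.

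The remaining probe named UBE2B, A_23_P362415, lies on the opposite strand of chromosome 5 at 133735375 to 133735434, 2617 bases before the nearest of the other probes. RefSeq held no symbol for its source sequence, whereas it gave UBE2B for the other probes. Whether it reads UBE2B RNA was not tested, so it may say nothing about that gene. It was dim, well above background on 10 arrays, and its mock levels of -3.93, -4.20, -5.76 and -4.78 covered 5 of the 6 common-seed levels, which ran from -5.45 to -2.90. Its difference was -0.078 (95% interval -0.88 to 0.73, adjusted p = 0.938), so that a fall of the size seen in A_24_P200583 lay within the interval while that of A_23_P167595 did not. The highest of its levels was that of miR-372 sample 4, the array with the most probes well above background. UBE2A had a single probe, with levels of 2.56, 2.67, 2.85 and 3.35 on mock samples 1, 8, 9 and 11 and from 2.44 to 3.09 on the common-seed arrays. The levels overlapped, and the difference was -0.058 (95% interval -0.32 to 0.20, adjusted p = 0.834). The intervals of UBE2A and of the 2 called UBE2B probes did not overlap, but the difference between the genes was not tested, since they are read by different probes.

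**Figure D2:**
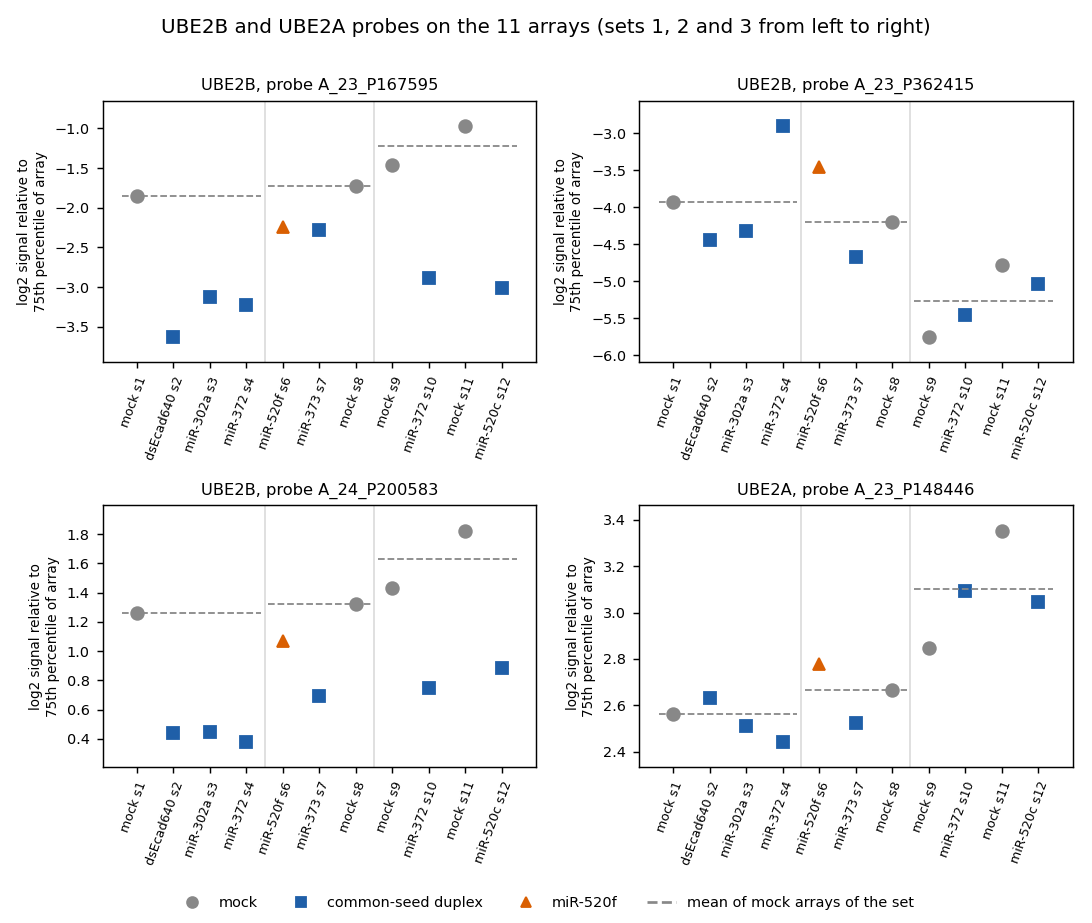
Levels of the 3 UBE2B probes and the UBE2A probe (log2 signal over the array's 75th percentile) on the 11 arrays in the order of sets 1 to 3, with circles for mock, squares for common-seed duplexes, a triangle for miR-520f and dashed lines for the mock mean of a set. In A_23_P167595 and A_24_P200583 every square lies below every circle, with 6 common-seed and 4 mock arrays, while in A_23_P362415 and UBE2A they mix.

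UBE2W, which attaches ubiquitin to the N-terminus of substrates rather than to a lysine, was lower than the mock mean of its set on each of the 6 common-seed arrays in each of its 3 probes. In probe A_24_P346604 the mock levels were -1.42, -1.55, -1.56 and -1.19 on samples 1, 8, 9 and 11. The common-seed levels were -2.26 with dsEcad640, -2.11 with miR-302a, -1.83 and -1.91 with miR-372 samples 4 and 10, -2.07 with miR-373 and -1.93 with miR-520c. No common-seed level reached the lowest mock level. This probe fell by 0.57 (standard error 0.12, limma adjusted p = 0.0382), or 1.49-fold, with -0.65, -0.52 and -0.55 in sets 1, 2 and 3. The others, A_23_P71430 and A_23_P71433, had differences of -0.47 each, with adjusted p of 0.0605 and 0.0619 in limma, and were not called. Their own levels differed between sets: A_23_P71430 read -1.19 and -1.15 on mock samples 1 and 8 but -0.45 and -0.15 on mock samples 9 and 11, so that its levels overlapped between groups over all arrays though not within any set. All 3 probes are in the study's list of decreased genes. Without the set block the adjusted p of A_24_P346604 was 0.0539.

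UBE2Q1 and UBE2Q2 are paralogues with a long N-terminal extension before the E2 core domain. UBE2Q1 probe A_23_P97423, at 152787960 to 152788019 on chromosome 1, had mock levels of -0.47, -0.42, -0.51 and -0.61 on samples 1, 8, 9 and 11, and levels of 0.21 with dsEcad640, 0.067 with miR-302a, -0.045 and -0.18 with miR-372 samples 4 and 10, 0.026 with miR-373 and -0.30 with miR-520c. All 6 lay above all mock arrays, with miR-520c the nearest. It rose by 0.42 (standard error 0.09, limma adjusted p = 0.0410), or 1.34-fold, with 0.54, 0.44 and 0.32 in the 3 sets. The call did not hold without the set block (limma adjusted p = 0.108) or without mock sample 1 (0.230). It passed in 5 of 16 alternatives. The other UBE2Q1 probe, A_23_P86037, gave 0.078 (95% interval -0.26 to 0.42), and its level differed between sets, with 0.10 and 0.19 on mock samples 1 and 8 but -0.78 and -1.34 on mock samples 9 and 11.

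UBE2Q2 went the other way in value without passing the test. Its probes A_23_P77274 and A_24_P412617 had differences of -0.40 (adjusted p = 0.186) and -0.42 (adjusted p = 0.355) in limma, and in both, 5 of the 6 common-seed arrays lay below the mock mean of their set. The exception was miR-372 sample 4, at 0.19 and 0.46 above mock sample 1, against -0.39 and -0.59 for miR-372 sample 10. The study lists A_23_P77274 as decreased, again from these arrays. Without miR-372 sample 4, UBE2Q2 was among the genes called. Leaving out any other single mock or common-seed array left both probes uncalled. Over all alternatives, A_23_P77274 passed in 3 of 16 and A_24_P412617 in 2 of 14.

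**Figure D3:**
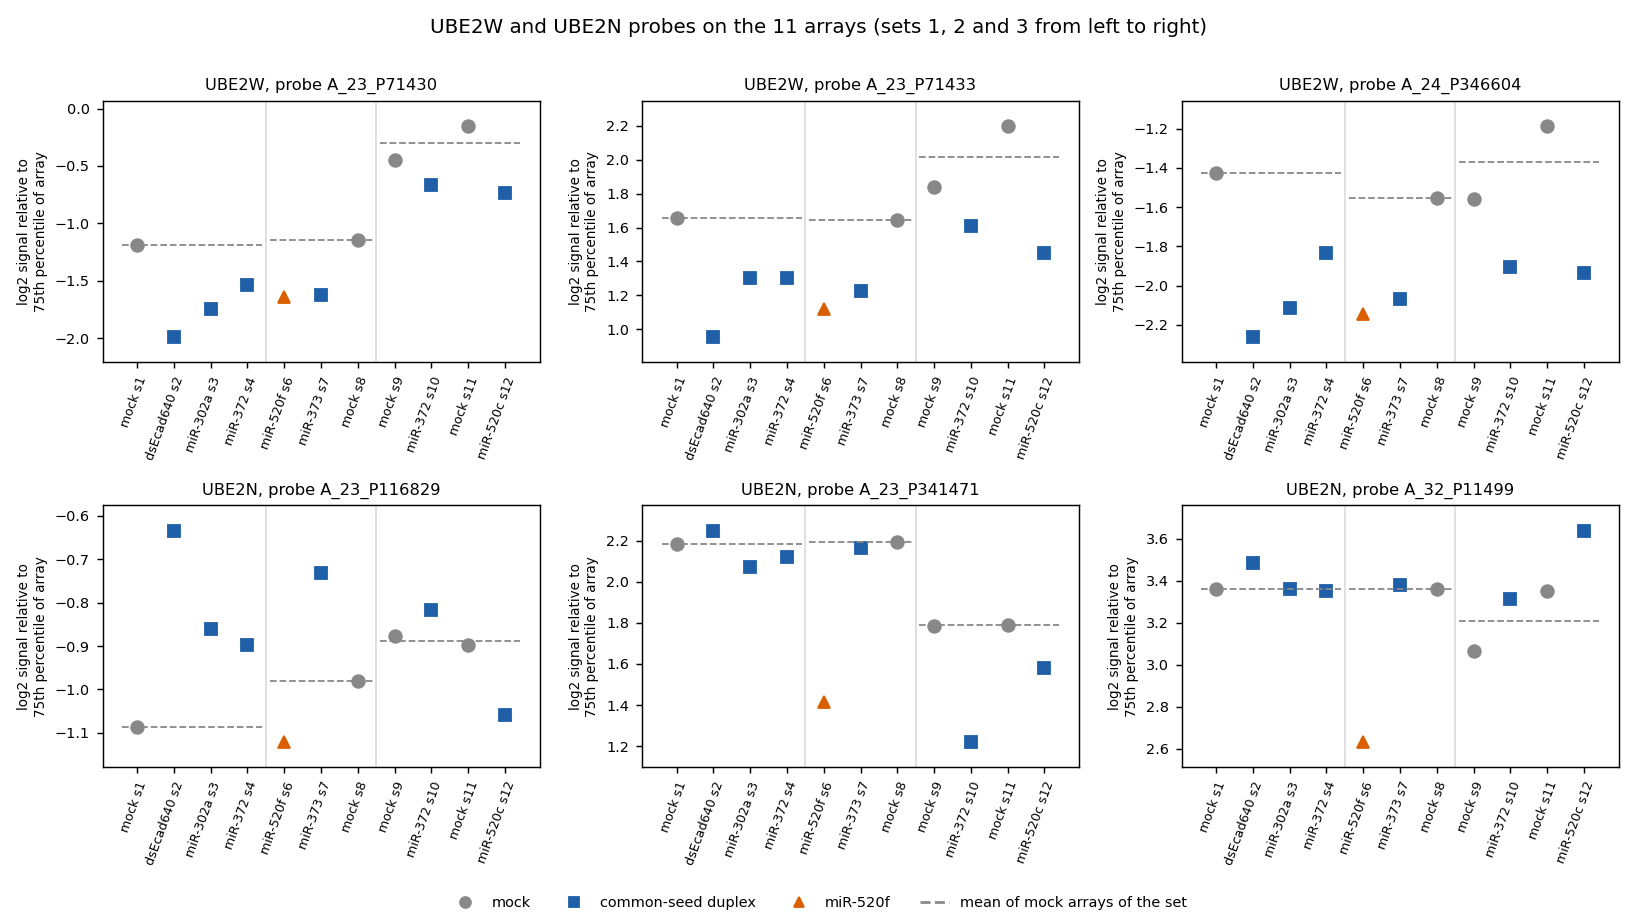
Levels of the 3 UBE2W and 3 UBE2N probes (log2 signal over the array's 75th percentile) on the 11 arrays in the order of sets 1 to 3, marked as in the plot of UBE2B and UBE2A. In each set the UBE2W squares and triangle lie below the dashed mock mean, and in UBE2N the miR-520f triangle is the lowest point of set 2, at 1.41 in A_23_P341471 and 2.63 in A_32_P11499.

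The UBE2D and UBE2E enzymes work with many E3 ligases, and the UBE2D group is the most widely used in ubiquitylation reactions. None of the 7 UBE2D probes was called in limma (2 at an unadjusted p under 0.05), and their differences ran from -0.074 to 0.26. In this and the other small groups below, the absence of a call says little, since only 4.19% of all probes were called. The 2 at an unadjusted p under 0.05 were probes of UBE2D1 and UBE2D2, at 0.25 and 0.20 (limma adjusted p = 0.175 and 0.221). The other probe of each gene lay at -0.074 and -0.033. The highest difference, 0.26, was that of UBE2D3 probe A_24_P363005 (limma adjusted p = 0.278), and the other UBE2D3 probe lay at 0.044. In the UBE2E group, UBE2E3 had the highest difference of the family in A_23_P11192, 0.43 (adjusted p = 0.0787), where the mock levels were 4.83, 4.83, 5.21 and 5.33 and the common-seed levels 5.08 to 6.08. All 6 arrays were above the mock mean of their set, by 0.25 to 0.81, with miR-520c at the top. Its other probe gave 0.26, and UBE2E2 gave -0.42 (adjusted p = 0.234) with miR-520c at -1.04 and miR-373 at 0.017 to the mock mean of their sets. For UBE2E1, a dim probe, the same array read -1.04 while dsEcad640, miR-372 sample 4 and miR-373 read 0.49, 0.71 and 0.45.

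UBE2N builds ubiquitin chains through lysine K63 together with the catalytically inactive partners UBE2V1 or UBE2V2, in DNA repair and inflammatory signalling. No probe of UBE2N or UBE2V2 was called in limma under the common-seed duplexes (0 of 4, and 0 at an unadjusted p under 0.05), with differences of -0.19, 0.14 and 0.13 for UBE2N and -0.012 for UBE2V2. Under miR-520f the values were farther from 0. UBE2N probe A_23_P341471 read 1.41 with miR-520f against 2.19 on mock sample 8 and 2.16 with miR-373 in the same set. Probe A_32_P11499 read 2.63, 3.36 and 3.38 in that order, and A_23_P116829 read -1.12, -0.98 and -0.73. In each of the 3 probes miR-520f was the lowest array of its set, and in A_32_P11499 and A_23_P116829 it was the lowest of all 11. The fitted differences to mock were -0.86 (95% interval -1.35 to -0.37, adjusted p = 0.128), -0.67 (95% interval -1.14 to -0.20, adjusted p = 0.219) and -0.20 (adjusted p = 0.789) in limma, none of them a call. In A_23_P341471 miR-372 sample 10 was also low, 0.57 below the mock mean of set 3.

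Among E2s that build K48 chains, the type best known for sending proteins to the proteasome, none of the 5 probes of UBE2G1, UBE2G2 and UBE2R2 was called in limma (0 at an unadjusted p under 0.05). UBE2G2, an enzyme of endoplasmic reticulum-associated degradation, had 0.18 (adjusted p = 0.249) in A_24_P357037, which the study lists as increased, and all 6 common-seed arrays were above the mock mean of their set by 0.08 to 0.27. The other UBE2G2 probe gave 0.14 and the UBE2G1 probes 0.12 and -0.12. UBE2R2 gave 0.036, and 0.38 under miR-520f (adjusted p = 0.410). Its paralogue CDC34, also known as UBE2R1, is the E2 of the SCF ligases and is outside the family's naming pattern on this array. Both CDC34 probes rose, by 0.51 (adjusted p = 0.0148) and 0.41 (adjusted p = 0.0467) in limma, though neither passed without the set block (adjusted p = 0.0829 and 0.118).

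UBE2J1 and UBE2J2 are anchored in the membrane of the endoplasmic reticulum. UBE2J2 probe A_24_P17302, at 1179854 to 1179913 on chromosome 1, had mock levels of -1.45, -1.47, -1.80 and -1.78 on samples 1, 8, 9 and 11. With the duplexes it read -1.11 (dsEcad640), -1.07 (miR-302a), -1.08 and -1.36 (miR-372 samples 4 and 10), -1.23 (miR-373) and -1.42 (miR-520c). The groups did not overlap, although miR-520c lay just above the top mock levels, which belong to other sets. It rose by 0.35 (standard error 0.07, limma adjusted p = 0.0331), or 1.28-fold, with 0.37, 0.24 and 0.40 in the 3 sets. The call did not hold without the set block (limma adjusted p = 0.175) or without mock sample 1 (0.197). It passed in 4 of 16 alternatives. The second UBE2J2 probe was at 0.20 (adjusted p = 0.203), above the mock mean of the set on all 6 arrays, and UBE2J1 was at -0.19 (adjusted p = 0.374).

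The ubiquitin-like E2s held the only gene whose probes were all called, where A_23_P362415 is counted as a UBE2B probe. UBE2F passes NEDD8 to the cullin CUL5, and UBE2M to the other cullins. UBE2F probe A_23_P39561, which spans 5203 bases from 238598781 to 238603983 on chromosome 2, had mock levels of 0.94, 1.08, 0.90 and 0.90 on samples 1, 8, 9 and 11, with a mean of 0.95 ± 0.08 (SD, n = 4). It read 1.40 with dsEcad640, 1.39 with miR-302a, 1.25 and 1.30 with miR-372 samples 4 and 10, 1.36 with miR-373 and 1.29 with miR-520c. All 6 were above the 4 mock arrays, which lay close together. The rise was 0.37 (standard error 0.07, limma adjusted p = 0.0329), or 1.29-fold. Probe A_32_P104825, at 238614847 to 238614906, rose by 0.43 (standard error 0.08, adjusted p = 0.0285), and here the mock levels of set 3, 3.23 and 3.22, overlapped with miR-373 of set 2 at 3.22. Within sets the differences of the 2 probes were 0.40 and 0.42 in set 1, 0.28 and 0.27 in set 2, and 0.39 and 0.50 in set 3. Without the set block the adjusted p was 0.0881 and 0.272.

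UBE2M had 0.28 (adjusted p = 0.212), which came from set 3, where miR-372 and miR-520c were 0.48 and 0.63 above the mock mean, while the other common-seed arrays were between -0.083 and 0.15. UBE2L6, the interferon-induced E2 of ISG15, was lower than the mock mean of the set on all 6 arrays, by 0.21 to 0.92. Its mock levels of 0.35, 0.30, 0.10 and -0.47 were spread widely, with mock sample 11 among the duplex arrays, and the difference of -0.63 was not called (95% interval -1.01 to -0.25, adjusted p = 0.0759).

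**Figure D4:**
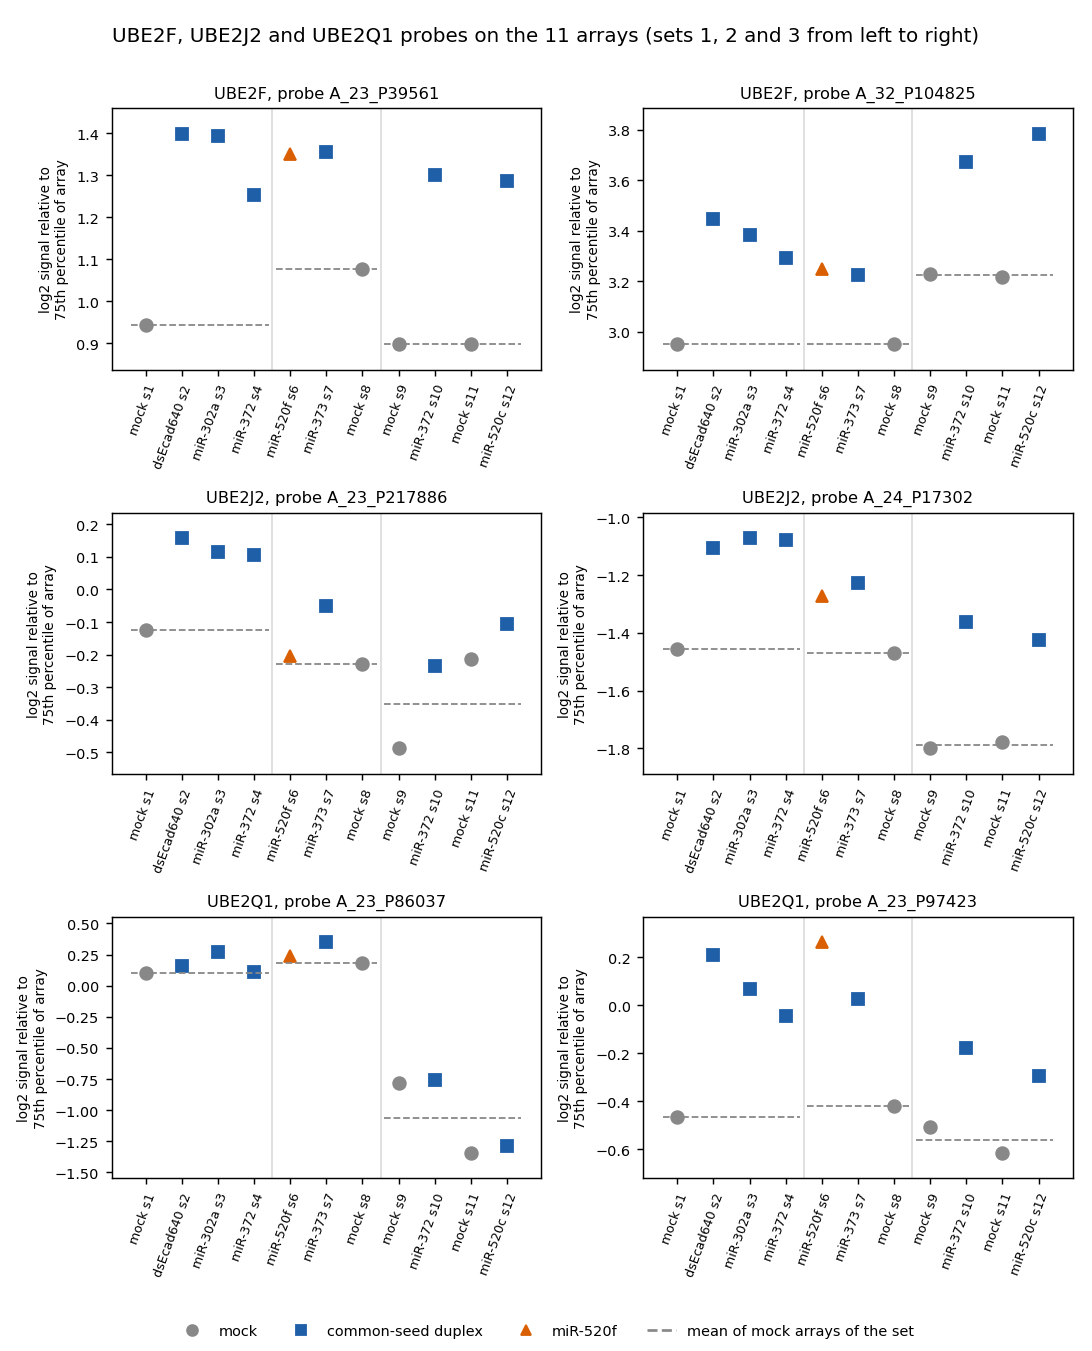
Levels of the UBE2F, UBE2J2 and UBE2Q1 probes (log2 signal over the array's 75th percentile) on the 11 arrays in the order of sets 1 to 3, marked as in the plot of UBE2B and UBE2A. All squares of UBE2F, of UBE2J2 A_24_P17302 and of UBE2Q1 A_23_P97423 lie above the mock mean of their set, by 0.24 to 0.68, while UBE2Q1 A_23_P86037 mixes with mock.

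UBE2C and UBE2S start and extend ubiquitin chains on substrates of the anaphase-promoting complex, and their 4 probes stayed between 0.021 and 0.095 with no call in limma and 0 at an unadjusted p under 0.05. Of the remaining E2s, UBE2L3, which serves ligases that carry ubiquitin on a cysteine of their own, had 0.30 (adjusted p = 0.124) in 1 probe and -0.0086 and -0.069 in the others. UBE2T, the E2 of the Fanconi anaemia pathway, was at -0.062, UBE2O, a large E2 that can also act as its own ligase, at 0.095 and 0.15, and UBE2Z, which is loaded by the E1 enzyme UBA6, from -0.090 to 0.12. UBE2H differed between its probes and sets. In A_23_P215096 the set 1 duplexes were 0.76 to 1.00 above mock sample 1 and the other common-seed arrays -0.19 to 0.049, and mock sample 1 itself, at -0.39, was the lowest of the 4 mock arrays, the others being at 0.52 to 0.80.

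Of the 18 genes with at least 2 probes kept, 11 had probes of 1 sign and 7 of opposite signs. UBE2F had all probes called, and the 4 other called genes, UBE2B, UBE2J2, UBE2Q1 and UBE2W, each had a probe that was not. For UBE2B this was A_23_P362415, whose source sequence had no symbol in RefSeq. When the probes of a gene were averaged before the fit, 3 genes were called, UBE2E3, UBE2F and UBE2W, and UBE2B was not. The UBE2B mean over its 3 probes, which include the dim, opposite-strand A_23_P362415, differed by -0.75 (limma adjusted p = 0.0513). Over the other 2 probes, a setting chosen after the data were seen, it differed by -1.08 (limma adjusted p = 0.0109) and was called.

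Relative to the mock arrays of the set and with no test, the number of E2 probes at least 0.5 lower and higher was 8 and 3 of 54 with dsEcad640 (13.8% and 7.58% of all probes), 6 and 2 with miR-302a (8.03% and 5.02%) and 5 and 0 with miR-373 (11.9% and 4.42%). It was 3 and 3 with miR-372 sample 4 (3.96% and 28.9%), 7 and 0 with miR-372 sample 10 (6.2% and 7.88%), 11 and 5 with miR-520c (14.9% and 18.1%) and 8 and 3 with miR-520f (18.5% and 7.32%). The 28.9% of miR-372 sample 4 stood out among all probes but not among the E2 probes, where 3 of 54 were higher. On all 6 common-seed arrays, 6 of the 54 E2 probes were lower than the mock mean of their set and 11 higher, against 11.6% and 16.5% of all probes. The 6 were 2 of UBE2B, 3 of UBE2W and the probe of UBE2L6.

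**Figure D5:**
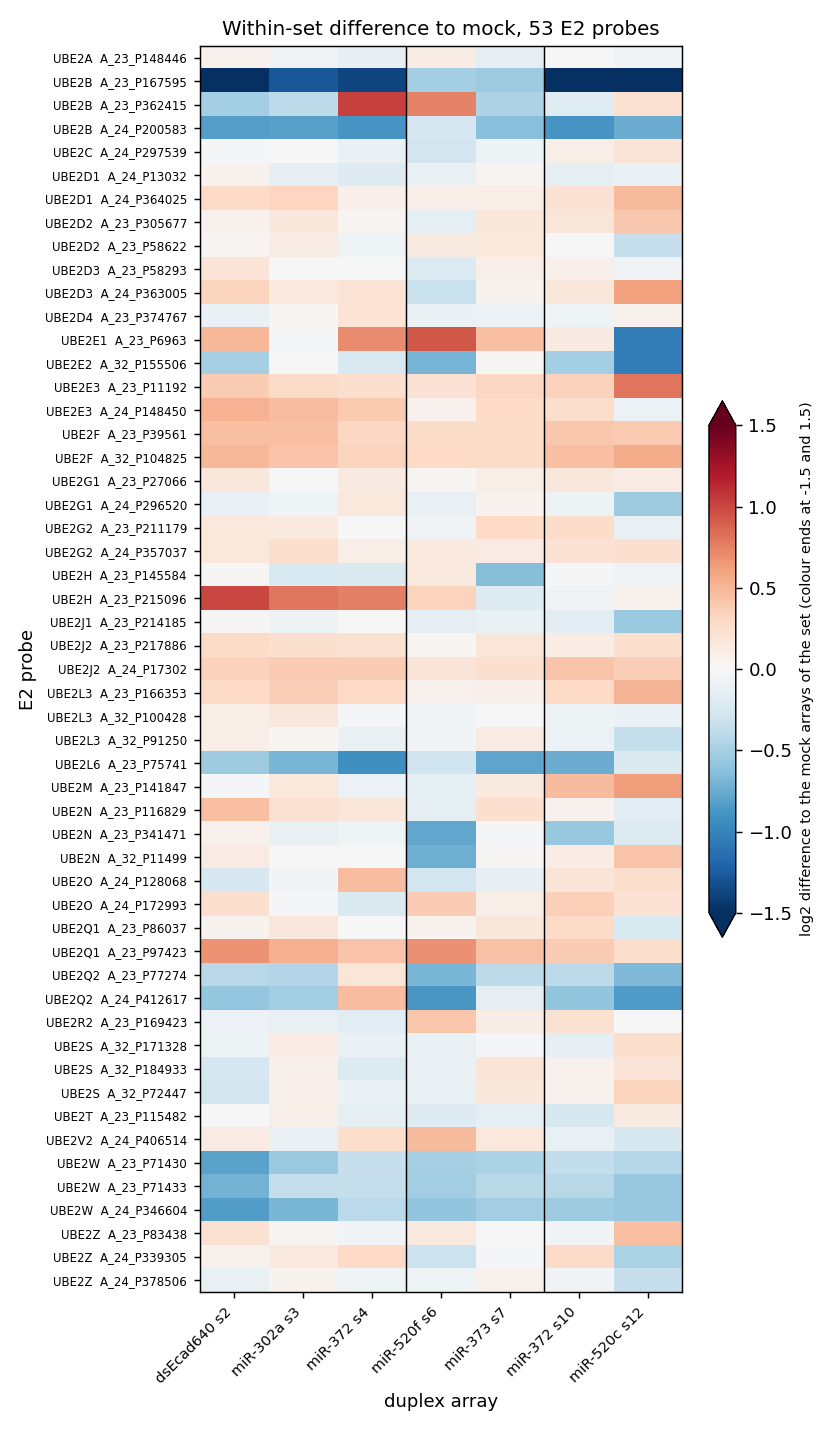
Log2 difference of each duplex array (columns, in sets 1 to 3 from left to right) to the mean of the mock arrays of its set, for 53 of the 54 E2 probes (rows, by gene name), blue for lower and red for higher. The rows of UBE2B A_23_P167595 and A_24_P200583 and of UBE2W are blue in all 7 columns, and those of UBE2F are red in all 7, between 0.27 and 0.56.

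The question of whether the shifted seed of miR-520f gave other E2 changes was addressed with its 1 array, which was assumed to vary like the others. No E2 probe was called against mock in limma (0 of 54, lowest adjusted p = 0.128), with 9 at an unadjusted p under 0.05 (16.7%, and 12.4% of all probes), while 0.658% of all probes were called, 0.358% lower and 0.299% higher. Against the common-seed arrays none was called either (0 of 54, lowest adjusted p = 0.265), with 4 at an unadjusted p under 0.05 (7.41%, the same share as over all probes) and 0.0591% of all probes called, 0.0222% lower and 0.0369% higher. For UBE2B, miR-520f lay between mock and the common-seed arrays in A_24_P200583, at 1.07, and read -2.24 in A_23_P167595, close to miR-373 of the same set. The differences to the common-seed arrays were 0.45 (95% interval 0.016 to 0.88, adjusted p = 0.644) and 0.46 (95% interval -0.48 to 1.40, adjusted p = 0.957), so that the first interval lay just above 0 and the second included it. The dim probe A_23_P362415 was 0.94 above mock in the fit (95% interval -0.59 to 2.47, adjusted p = 0.657) and 1.02 above the common-seed arrays (95% interval -0.52 to 2.55, adjusted p = 0.892), the highest miR-520f values of the family and neither a call in limma. For UBE2W the 3 differences to the common-seed arrays were -0.021, -0.083 and -0.046, with 95% intervals of -0.52 to 0.48, -0.58 to 0.42 and -0.56 to 0.46, and miR-520f was 0.50, 0.53 and 0.59 below mock sample 8. For UBE2F they were -0.053 and -0.050 (95% intervals -0.37 to 0.26 and -0.39 to 0.29).

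Of the 3 UBE2N probes, 2 had the lowest values of miR-520f against the common-seed arrays within the family, -0.81 (95% interval -1.28 to -0.33, adjusted p = 0.265) in A_32_P11499 and -0.67 (95% interval -1.16 to -0.18, adjusted p = 0.435) in A_23_P341471, while A_23_P116829 had -0.33 (95% interval -0.79 to 0.13, adjusted p = 0.869). UBE2Q2, UBE2E2 and UBE2Q1 had values against mock of -0.69 and -1.02, of -0.92 and of 0.67 in A_23_P97423, with adjusted p of 0.389, 0.407, 0.320 and 0.130. The median standard error over the E2 probes was 0.21 for miR-520f against mock and 0.11 for the common-seed arrays against mock.

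The enzymes on either side of the E2s were read from further gene lists. Over all probes 4.19% were called under the common-seed duplexes and 21.1% had an unadjusted p under 0.05 in limma. In lists this small, the absence of a call therefore does not show that the genes were unchanged. Of 13 probes of 9 E1 genes, none was called in limma under the common-seed duplexes (3 at an unadjusted p under 0.05). Their differences ran from -0.78 for UBA7, the E1 of ISG15, to 0.33 for NAE1, a subunit of the E1 of NEDD8. The UBA7 probe was well above background on only 8 arrays, and its difference was imprecise (standard error 0.44, limma adjusted p = 0.372). Of 27 probes of the ubiquitin and ubiquitin-like genes none was called (5 at an unadjusted p under 0.05, differences from -0.35 to 0.19), nor of 13 probes of ligases and partners that work with RAD6 enzymes (0 at an unadjusted p under 0.05, -0.28 to 0.18) or 9 of partners of the anaphase-promoting complex (1 at an unadjusted p under 0.05, -0.10 to 0.43). Among the 13 probes of E2s and E2 variants with other names, the 2 of CDC34 were the only ones called. AKTIP, a variant that lacks the catalytic cysteine, had the lowest values, -0.70 (adjusted p = 0.0730) and -0.64 (adjusted p = 0.129) in limma. Under miR-520f, which has a single array, the AKTIP values were -1.42 and -1.37, neither of them a call.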

How the data were processed

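The authors deposited Feature Extraction 10.5.1.1 scanner output, in which, per the file headers, the processed signal is a background-subtracted intensity that is not scaled between arrays. They also deposited a table of log2 values whose normalization the sources used here do not name. Its column medians are 8.24 in set 1, 8.82 to 8.83 in set 2 and 8.51 in set 3, its columns correlate with the scanner values at r of 0.992 or more, and the sets appear to have been normalized separately.

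Processed signals were taken as log2 relative to the array's 75th percentile, spots marked as outliers (52 to 209 of 43376 per array) were not used, and spots with the same probe were averaged. The number of arrays limits the precision. Differences were fitted with R 4.3.3 and limma 3.58.1 on all 11 arrays with 3 classes (mock, common seed, miR-520f) and the set as a block, with 6 residual degrees of freedom and a median residual SD of 0.215 (0.346 without the block), and the fit was tested on simulated data. The block is used because the sets hold unequal numbers of mock and duplex arrays. Alternatives were no block, quantile normalization, normexp with an offset of 50, other filters, gene means, the deposited table and leaving out single arrays.

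Named genes are E2s with a call or in the study's lists of changed genes with a seed site, their closest paralogues, and the lowest and highest probes of each role group, with further lists contributing genes with a call and, chosen after their values were seen, UBA7, NAE1 and AKTIP. The members and lists were chosen with earlier results of these data known. Probe coordinates are of hg18, for which no annotation was used here, so exons and UTRs are not given. RefSeq (GRCh38.p14) gave the same symbol for the accessions of 50 of the 56 E2 probes and held none for 6. The files hold no probe sequences that were used here, and the dsEcad640 sequence is not printed. The values of 1 E2 probe and of some marker genes are not reported here.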

Additional observations from a re-analysis of the deposited data

Results flagged for a closer look

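Among the 22 E2 probes whose 4 mock levels were checked for a single far value, 1 stood out, and such a check marks about 1 in 20 groups by chance. In UBE2N probe A_32_P11499, mock sample 9 read 3.07 and the other mock arrays read 3.35 to 3.36, so that the gap took up 0.975 of the whole range, more than Dixon's test allows for 4 values.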

How the results depend on the processing

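The count of 7 E2 probes called under the common-seed duplexes moved to 2 without the set block, 1 without a filter on dim probes, 3 genes with the mean of a gene's probes, 4 with that mean and UBE2B without A_23_P362415 (chosen after seeing the data) and 3 with a change of at least 0.5, and to 11 with quantile normalization, 11 with a filter on all 11 arrays and 12 with the authors' normalized table, while normexp gave 9. Leaving out single arrays gave 0 (without mock sample 1) to 11 (without miR-372 sample 4). These are counts of E2 probes or genes alone. The share of all probes called in the same settings is not given here, so a change particular to the family cannot be read from them. UBE2B A_24_P200583 passed in 15 of 16 alternatives (adjusted p from 0.00253 to 0.0946) and A_23_P167595 in 11, while the other called probes passed in 4 or 5, always with the main direction. For miR-520f against mock or the common-seed arrays, limma called 0 E2 probes in every alternative run (at an unadjusted p under 0.05, 9 and 4 with all 11 arrays). The count of within-set differences past 0.5 was again of E2 probes alone. It was 64 over 54 probes and 7 arrays, 99 against the mean of all 4 mock arrays and 9 past 1. Some probes without a call changed sign. UBE2B A_23_P362415 against mock was 0.20 without the set block and from -0.26 (without mock sample 9) to 0.074 (without mock sample 11) with single arrays left out, and UBE2A ran from -0.15 to 0.026. UBE2Q1 A_23_P86037 was 0.43 for miR-520f against the common-seed arrays without the set block, and with single arrays left out it ran from -0.011 to 0.18 for the common-seed arrays and from -0.062 to 0.060 for miR-520f against mock. For miR-520f against the common-seed arrays, UBE2W A_23_P71430 was 0.0050 with quantile normalization, 0.059 with normexp and from -0.044 to 0.011 with single arrays left out, and A_24_P346604 was 0.067 with normexp. The cause of these shifts was not tested. The sample numbers pair no samples, since none occurs in more than 1 group, and duplex and mock arrays were compared within sets through the set block.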
